A study of Rattus norvegicus with 9 samples.

Results

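The genes described here are 8 markers of neuron types of the rat hippocampus, out of 30562 genes in the deposited count table. Wfs1, Fibcd1, Mpped1 and Pou3f1 were taken as markers of CA1 pyramidal neurons, and C1ql2, Prox1, Dsp and Tdo2 as markers of dentate granule neurons. Each was found by its gene name, and each name belonged to a single gene ID. RNA was sequenced from the hippocampal region of male Sprague-Dawley rats, aged 6 to 8 weeks at the start, in 9 libraries, 3 for each of the groups ChryM, Model and Ctrl. ChryM rats received chrysophanol, a plant anthraquinone, by oral gavage for 14 days; that they had also gone through the Model protocol follows from the title of the series, and the labels give neither the dose nor the meaning of the letter M. Model rats were fed a high-fat diet for 4 weeks and then injected once, into the peritoneal cavity, with 50 mg/kg of streptozotocin, which kills the beta cells of the pancreas. Those with a fasting glucose of at least 16.7 mmol/L then went through 5 weeks of chronic unpredictable mild stress. Ctrl rats were the normal control group. The labels do not tie libraries to animals, so the p-values below set differences only against the variation of these libraries, counting error included. Part of that may be technical, and how far it covers the variation between animals is not known.

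The hippocampus passes signals through a chain of neuron types. Granule neurons of the dentate gyrus send mossy fibres to CA3, and CA3 projects to CA1, whose pyramidal neurons form the main output. Each type keeps a set of genes that the neighbouring types express weakly or not at all, and such genes are used to tell the subfields apart. In bulk tissue, fewer cells of a type and less RNA per cell cannot be told apart.

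The data carried the label of the tissue only in part. Of 7 listed genes of excitatory neurons, 6 had enough counts for a test. Slc17a7, the vesicular glutamate transporter of the cortex and hippocampus, had 351 to 539 counts per library, and Camk2a had 67 to 156. Emx1, the gene left out, had 2 to 12. All 4 CA1 genes were detected in every library, with 249 to 486 counts over the 9 libraries. Of the dentate genes, C1ql2 had 263 counts in all, while Prox1 had 11, Dsp 14 and Tdo2 0. Prox1 is widely used to define dentate granule neurons, so the dentate label rested here on C1ql2, and 5 of the 8 genes could be tested. Library totals were 767707 to 866048 counts in ChryM, 631119 to 772765 in Model and 727070 to 807513 in Ctrl, low for a whole transcriptome; 7073 genes had enough counts for a test.

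The libraries were made with a kit that keeps the strand, while the sources used here do not say how strand was set when reads were counted. Mt-nd6, the mitochondrial protein gene that lies on the strand opposite to the others, had 9918 to 22156 counts per library and a mean of 42000 FPKM (counts per length), against 7380 FPKM for Mt-co1. Gad2, which GABA neurons express beside Gad1, had at most 6 counts in a library, against 54 to 73 for Gad1. Whether reads were counted on the transcribed strand was not tested, so the counts of any gene here, the few of Prox1 and Dsp and the 0 of Tdo2 included, may not be those of its mRNA. Levels below are of the counts as deposited. No other gene lies within 5 kb of Wfs1, C1ql2 or Dsp in RefSeq's GRCr8 annotation. Mpped1 overlaps the non-coding LOC120093700 over 5055 bases, and non-coding genes lie 69 bases from Fibcd1, 284 from Pou3f1 and 185 from Prox1. That near Fibcd1 is on the opposite strand. A protein-coding gene lies 2557 bases from Fibcd1 on the same strand, and Tdo2 overlaps small RNA genes over 107 and 81 bases.

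The start regions of the called genes Wfs1 and C1ql2 are shown with that of Fibcd1, a CA1 gene that was not called, so that the letters around the starts of the genes called in both comparisons stand beside those of one called in neither. They run 5′ to 3′ from 250 bases before to 50 bases after the start, from RefSeq on GRCr8, at chr14:78034955-78035254 on the plus strand for Wfs1, chr13:34023652-34023951 on the plus strand for C1ql2 and chr3:35524093-35524392 on the minus strand for Fibcd1. Capitals mark matches on either strand to GGGCGG (the GC box), CCAAT and CCACG (one arm of the endoplasmic reticulum stress element).
Wfs1: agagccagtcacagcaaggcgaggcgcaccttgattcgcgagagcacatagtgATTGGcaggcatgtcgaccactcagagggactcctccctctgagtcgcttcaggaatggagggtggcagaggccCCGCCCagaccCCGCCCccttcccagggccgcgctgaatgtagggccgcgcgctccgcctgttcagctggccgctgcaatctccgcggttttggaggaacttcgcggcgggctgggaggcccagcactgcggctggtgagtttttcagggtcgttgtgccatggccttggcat
C1ql2: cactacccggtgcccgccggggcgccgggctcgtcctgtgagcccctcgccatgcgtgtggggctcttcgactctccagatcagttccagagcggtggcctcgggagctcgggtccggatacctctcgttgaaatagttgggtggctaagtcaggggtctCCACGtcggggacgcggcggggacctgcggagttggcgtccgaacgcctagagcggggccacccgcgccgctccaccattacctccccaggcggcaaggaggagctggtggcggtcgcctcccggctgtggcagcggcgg
Fibcd1: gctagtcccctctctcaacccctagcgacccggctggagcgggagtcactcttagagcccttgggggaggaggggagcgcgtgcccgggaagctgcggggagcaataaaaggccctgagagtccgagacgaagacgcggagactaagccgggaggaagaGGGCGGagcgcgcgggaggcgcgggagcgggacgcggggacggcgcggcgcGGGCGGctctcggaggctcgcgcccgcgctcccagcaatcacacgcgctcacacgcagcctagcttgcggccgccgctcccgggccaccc
Wfs1 held 2 GC boxes and 1 CCAAT, C1ql2 held 1 CCACG and no GC box, and Fibcd1 held 2 GC boxes. Among 33469 promoters of the same 300 bases, 33.1% held the GC box, 37.5% CCAAT and 31.6% CCACG. None of these 3 motifs was found in both Wfs1 and C1ql2. GC content was 64.7% in Wfs1, 70.3% in C1ql2 and 72.7% in Fibcd1, against a median of 51.7% over all promoters. The motifs did not overlap each other in these windows. Promoters were matched for 6 of the 8 genes, all except Pou3f1 and Prox1.

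Compared per length, the order of the genes differed between the groups. On the deposited FPKM scale (counts over gene length and library total), Wfs1 was the highest of the CA1 genes in ChryM libraries, at 22.1 to 28.8 FPKM, and the lowest within each Model library, at 6.42 to 8.87 FPKM. In Ctrl libraries it was again the highest, at 18.1 to 28.7 FPKM. Fibcd1 stood at 12.8 to 16.4 FPKM in ChryM, 12.1 to 15.9 in Model and 14.6 to 17.6 in Ctrl. Pou3f1 had 15.2 to 17 FPKM in ChryM, 7.62 to 12.6 in Model and 12 to 13.4 in Ctrl, and Mpped1 had 8.99 to 13.4, 8.45 to 13.4 and 12 to 14.2 FPKM in the same groups. C1ql2 lay above all 4 in each group, with 34 to 66.4 FPKM in ChryM, 23 to 24.8 in Model and 38.8 to 46 in Ctrl. In Ctrl the ranges of C1ql2, Wfs1, Fibcd1 and the pair of Mpped1 and Pou3f1 did not overlap, and those of Mpped1 and Pou3f1 did. The other dentate genes averaged 0.422 FPKM for Prox1, 0.221 for Dsp and 0 for Tdo2 over the 9 libraries.

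**Figure D1:**
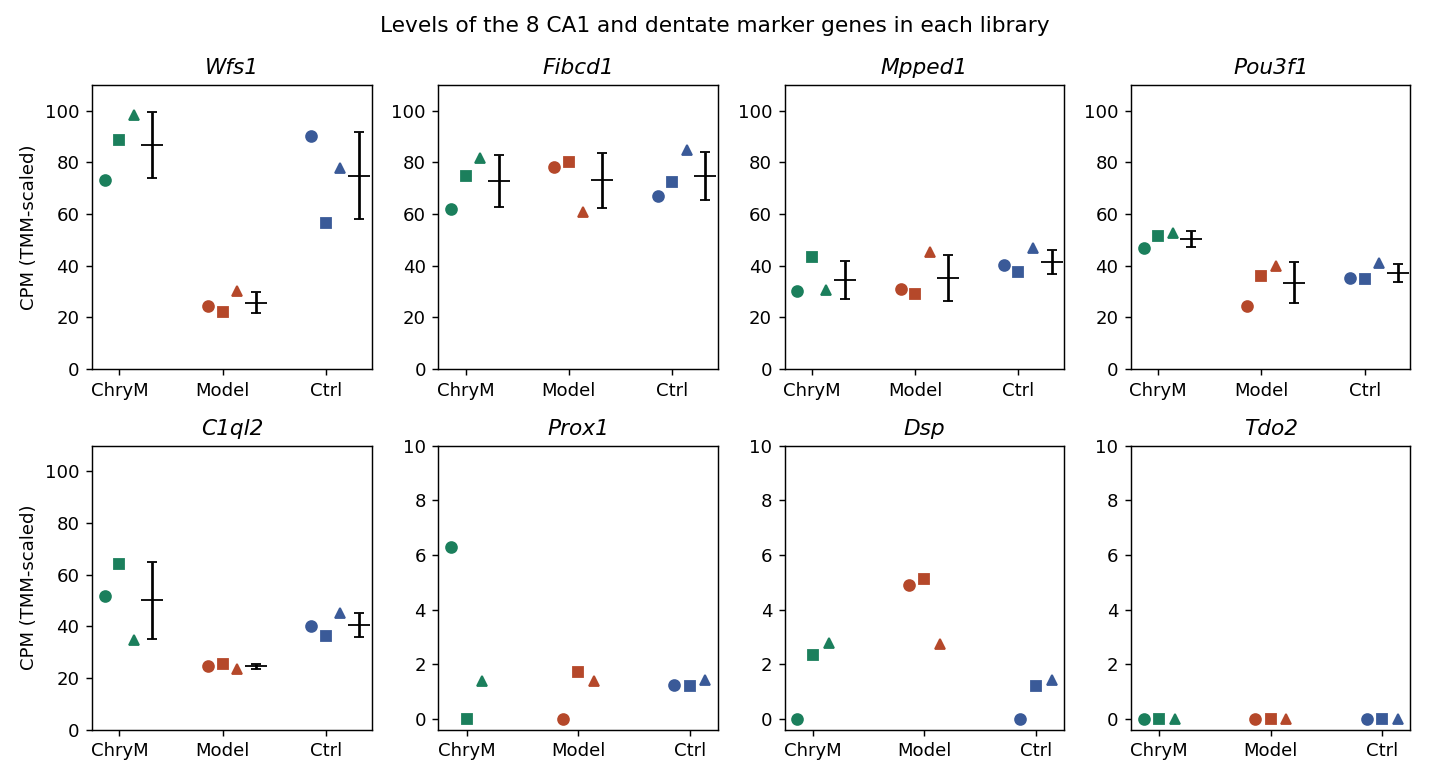
CPM (counts over TMM-scaled library size) of the 8 genes in each library, with ChryM, Model and Ctrl from left to right; circles, squares and triangles are replicates 1, 2 and 3, and the black bars are the mean and SD of 3 libraries for the 5 tested genes. Wfs1 lies at 22.2 to 30.3 CPM in Model, below every ChryM and Ctrl library, while Fibcd1 and Mpped1 overlap across the groups; the panels of Prox1, Dsp and Tdo2 have a smaller axis.

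The comparison of Model with Ctrl asks how these genes differ after the diabetes and stress protocol. Wfs1 and C1ql2 fell in Model, and the other 3 tested genes were not called. The 2 calls of 5 stand beside 12.4% of all 7073 tested genes called in either direction and 5.39% called lower, by edgeR's quasi-likelihood test at a Benjamini-Hochberg adjusted p under 0.05. The CA1 genes had a median log2 fold change of -0.16, against -0.02 over all genes tested.

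Wfs1 (ENSRNOG00000005108) encodes wolframin, a membrane protein of the endoplasmic reticulum whose loss in humans causes Wolfram syndrome, a disease with diabetes and nerve degeneration. It had 24.5, 22.2 and 30.3 CPM in Model libraries 1 to 3, against 90.1, 56.7 and 77.8 CPM in Ctrl libraries 1 to 3. The lowest Ctrl library lay above the highest Model library. The level in Model was 34.9% of that in Ctrl, a log2 fold change of -1.52 with a standard error of 0.23 (adjusted p = 8.92e-09). Each standard error is that of the test or that of counting, whichever is larger.

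Fibcd1 (ENSRNOG00000009735), a membrane receptor that binds acetylated sugars such as chitin, had 78.3, 80.3 and 60.6 CPM in Model, against 67, 72.4 and 84.8 CPM in Ctrl. The groups overlapped, and the log2 fold change was -0.04 with a 95% interval of -0.375 to 0.296. Mpped1 (ENSRNOG00000010834), a predicted metallophosphoesterase, had 31, 29 and 45.4 CPM in Model and 40.2, 37.4 and 46.7 CPM in Ctrl, a log2 fold change of -0.20 (-0.651 to 0.251). Pou3f1 (ENSRNOG00000047686), a POU-domain transcription factor also known from myelinating Schwann cells, had 24.5, 35.9 and 39.9 CPM in Model and 35.3, 35 and 41 CPM in Ctrl. Its log2 fold change was -0.13 (-0.596 to 0.338), and the groups overlapped. The 3 intervals leave out a fall of the size seen for Wfs1.

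Set against the other CA1 genes, Wfs1 was lower in Model. This restates the changes above from the same counts, with the called gene over the 3 not called, and adds no independent support. It made up 15.5%, 13.3% and 17.2% of the summed counts of the 4 genes in Model libraries 1 to 3, against 38.7%, 28.1% and 31.1% in Ctrl libraries 1 to 3. Per Fibcd1 count there were 0.277 to 0.5 counts of Wfs1 in Model and 0.783 to 1.35 in Ctrl. The log2 ratio of Wfs1 to the sum of the other 3 was -2.48 ± 0.221 in Model and -1.05 ± 0.355 in Ctrl (SD, n = 3 each). A two-sided exact permutation test of the ratio gave p = 0.1 (0.15 adjusted over 3 comparisons), the smallest p that 3 against 3 libraries allow.

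C1ql2 (ENSRNOG00000046863) encodes a secreted protein of the C1q family that mossy fibres of mice place at their synapses, where it binds neurexins and gathers kainate receptors. It had 24.5, 25.6 and 23.4 CPM in Model libraries 1 to 3, against 40.2, 36.2 and 45.2 CPM in Ctrl libraries 1 to 3. All Model libraries lay below all Ctrl libraries, as they did for 12.7% of all genes tested. The level in Model was 60.7% of that in Ctrl, a log2 fold change of -0.72 with a standard error of 0.26 (adjusted p = 0.0452). This call sat close to the threshold: it was lost without Model 1, 2 or 3 (adjusted p = 0.0897, 0.0838 and 0.152), without Ctrl 1, 2 or 3 (0.104, 0.0506 and 0.133) and without ChryM 1 (0.0521), while the log2 fold change stayed between -0.80 and -0.64. It was also lost with DESeq2 on the same genes (adjusted p = 0.259).

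The rest of the dentate genes gave too little for a comparison. Prox1 (ENSRNOG00000003694), the homeodomain factor that sets granule neuron identity, had 0, 1 and 1 counts in Model and 1 count in each Ctrl library. In ChryM it had 5, 0 and 1, so that 1 library held most of them. Dsp (ENSRNOG00000013928), desmoplakin, which ties desmosomes to intermediate filaments, had 3, 3 and 2 counts in Model and 0, 1 and 1 in Ctrl, with 0, 2 and 2 in ChryM. The ratio of its summed and scaled counts was 4.9 for Model over Ctrl, with an exact counting interval of 0.978 to 47.4, and 0.406 for ChryM over Model (0.0894 to 1.51). Tdo2 (ENSRNOG00000011612), tryptophan dioxygenase, which opens the kynurenine pathway, had 0 counts in all 9 libraries, where 3 counts, the limit that a count of 0 allows, correspond to 3.5 to 5.13 CPM. Intervals and limits of this kind cover counting error only.

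The comparison of ChryM with Model asks what chrysophanol goes with in rats that had the protocol. It uses the same Model libraries as the comparison above, so the values of both are set side by side and opposite signs are not independent of each other. Wfs1 and C1ql2 rose in ChryM, 2 of 5 tested genes, where 8.27% of all genes were called and 3.86% were called higher. The median of the CA1 genes was 0.29 on the log2 scale, against 0.00146 over all genes tested.

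Wfs1 had 73.1, 88.6 and 98.3 CPM in ChryM libraries 1 to 3, against the 22.2 to 30.3 CPM of Model. Its mean was 86.7 ± 12.7 CPM in ChryM and 25.7 ± 4.17 CPM in Model (SD, n = 3 each), a 3.31-fold difference (adjusted p = 1.48e-11). C1ql2 had 51.7, 64.1 and 34.6 CPM in ChryM libraries 1 to 3, against 23.4 to 25.6 CPM in Model. The ChryM libraries were spread over a wider range than those of Model, and did not reach down to it. The log2 fold change of C1ql2 was 1.05 with a standard error of 0.25 (adjusted p = 0.000902). Without ChryM 2, the highest library, it was 0.83 and was not called (adjusted p = 0.0524).

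Pou3f1 had 46.7, 51.3 and 52.6 CPM in ChryM, against 24.5, 35.9 and 39.9 CPM in Model. All ChryM libraries lay above all Model libraries, as in 11.8% of all genes tested, and the log2 fold change of 0.57 (0.133 to 1.01) did not pass the test (adjusted p = 0.103). Fibcd1 had 61.8, 74.6 and 81.7 CPM and Mpped1 had 30.3, 43.2 and 30.4 CPM in ChryM libraries 1 to 3. Both overlapped with Model, with log2 fold changes of 0.0042 (-0.332 to 0.341) for Fibcd1 and -0.03 (-0.502 to 0.433) for Mpped1. Wfs1 counts per Fibcd1 count were 1.18 to 1.2 in ChryM, above the 0.277 to 0.5 of Model.

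**Figure D2:**
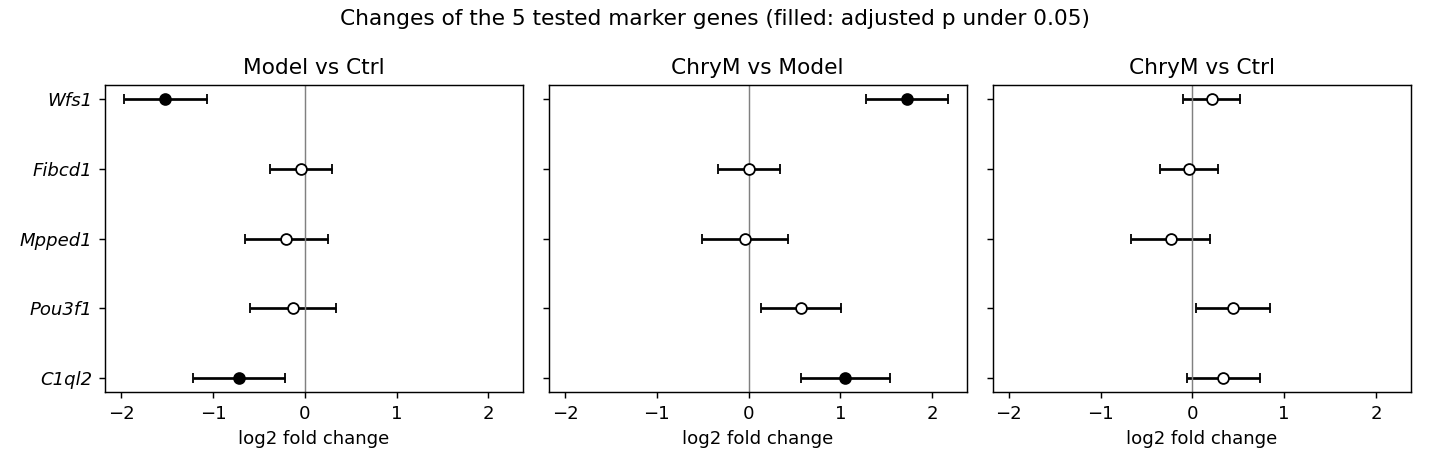
Log2 fold changes of the 5 tested genes (points) with 95% intervals (bars) in the 3 comparisons; filled points have a Benjamini-Hochberg adjusted p under 0.05 in edgeR's quasi-likelihood test. Wfs1 and C1ql2 are filled below 0 in Model against Ctrl and above 0 in ChryM against Model, which share the Model libraries, and no gene is filled in ChryM against Ctrl.

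Between ChryM and Ctrl none of the 5 genes was called by edgeR, where 18.8% of all genes were, and 1 of the 5, Pou3f1, had an unadjusted p under 0.05, as did 2093 of all 7073 genes; DESeq2 and limma called none. Wfs1 averaged 86.7 ± 12.7 CPM in ChryM and 74.9 ± 16.9 CPM in Ctrl (SD, n = 3 each), and its log2 fold change of 0.21 had an interval of -0.101 to 0.522. C1ql2 averaged 50.1 ± 14.8 CPM in ChryM and 40.5 ± 4.54 CPM in Ctrl, with a log2 fold change of 0.34 (-0.0624 to 0.734). Pou3f1 was 50.2 ± 3.13 CPM in ChryM and 37.1 ± 3.38 CPM in Ctrl, with no overlap between the groups and a log2 fold change of 0.44 (adjusted p = 0.128). All ChryM libraries lay above all Ctrl libraries in 15.8% of all genes. Fibcd1 and Mpped1 had log2 fold changes of -0.03 and -0.23.

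Further markers of the dentate gyrus were thinly covered: 4 of 12 listed genes could be tested, and Lct was at 0. In Model against Ctrl 2 of the 4 fell. Sema5a, a semaphorin that guides axons and dendrites, averaged 6.8 ± 2.58 CPM in Model and 20.3 ± 5.98 CPM in Ctrl (log2 fold change -1.57, adjusted p = 0.00394). Dock10, a guanine nucleotide exchange factor, averaged 25.7 ± 4.42 CPM in Model and 44.9 ± 6.96 CPM in Ctrl (log2 fold change -0.82, adjusted p = 0.0126). Both rose in ChryM against Model, Sema5a to 17.2 ± 1.86 CPM (1.33, adjusted p = 0.0324) and Dock10 to 42.4 ± 3.86 CPM (0.74, adjusted p = 0.0413). Calb1, a calcium buffer of granule neurons that CA1 neurons also hold, was 37.7 ± 7.26 CPM in Model and 55.2 ± 6.19 CPM in Ctrl and did not pass the test (adjusted p = 0.0781). In ChryM against Model, Calb1 and Stxbp6, a syntaxin-binding protein gene and the other tested marker, were not called, with log2 fold changes of 0.08 and -0.14. Against Ctrl their log2 fold changes in ChryM were -0.47 and -0.76 (adjusted p = 0.0885 and 0.11). The median of the 4 was -0.71 in Model against Ctrl and 0.41 in ChryM against Model. Leaving out 1 library ended the Sema5a call in 1 of 9 cases for Model against Ctrl (Ctrl 2, adjusted p = 0.0693) and in 4 for ChryM against Model (ChryM 1 or 2, Model 2 or 3, adjusted p up to 0.156). The Dock10 call ended in 3 cases (Model 1 or 3, Ctrl 1, up to 0.113) and in 5 (any ChryM library, Model 1 or 3, up to 0.178).

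Of 6 further CA1 markers, 3 could be tested and none was called in Model against Ctrl or in ChryM against Model; Spink8 was at 0 in every library. Among CA3 markers 5 of 9 could be tested. Homer3, a postsynaptic scaffold, was higher in Model than in Ctrl (0.32, adjusted p = 0.0226), and Elavl2, an RNA-binding protein of neurons, was lower in ChryM than in Model (-1.56, adjusted p = 0.0381); each call was lost without any of several single libraries, with adjusted p up to 0.16 and 0.288.

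Of 7 CA2 markers 4 could be tested, of which 1 fell and 1 rose in Model. Rgs14, a regulator of G-protein signalling that limits plasticity in CA2, fell to 18.6 ± 1.36 CPM in Model, against 41.6 ± 4.48 CPM in Ctrl (log2 fold change -1.15, adjusted p = 0.000737). Pcp4, a calmodulin-binding peptide, was higher in Model, at 225 ± 8.75 CPM, than in Ctrl, at 146 ± 8.63 CPM (0.62, adjusted p = 6.34e-06). In ChryM against Model, Rgs14 was higher by 0.84 (adjusted p = 0.0383, lost without any 1 of the 6 libraries compared, up to 0.195) and Pcp4 fell by 0.40 (adjusted p = 0.00741).

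**Figure D3:**
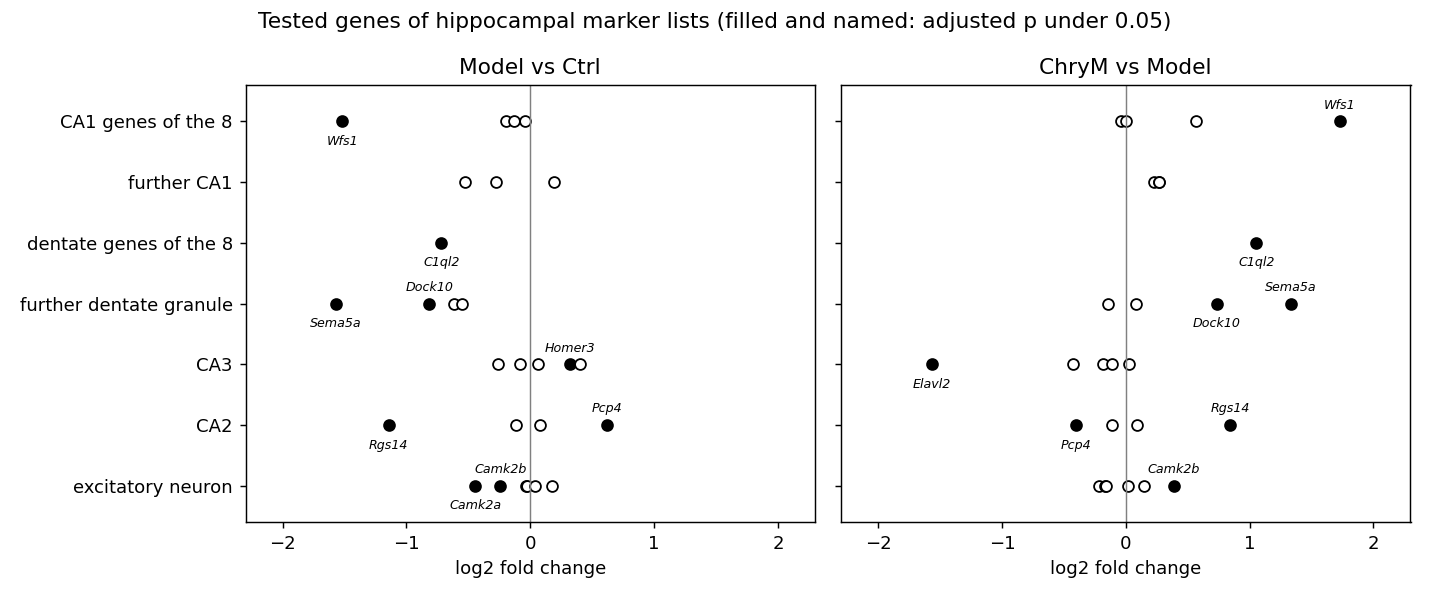
Log2 fold changes of the tested genes of each hippocampal marker list in Model against Ctrl (left) and ChryM against Model (right); each point is a gene, and filled, named points have an adjusted p under 0.05. Wfs1 stands at -1.52 and 1.73, away from the other CA1 genes, and the called dentate genes lie below 0 on the left and above 0 on the right, in comparisons that share the Model libraries.

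Partners of the 2 called genes were read from lists for their pathways. Of 9 C1q-like and kainate receptor genes, 7 were tested, and 2 fell in Model and rose in ChryM against Model: C1ql2 and its relative C1ql3. C1ql3 averaged 104 ± 20.8 CPM in ChryM, 69.3 ± 2.89 CPM in Model and 109 ± 17.1 CPM in Ctrl. Its log2 fold change was -0.67 in Model against Ctrl (adjusted p = 0.00105) and 0.57 in ChryM against Model (adjusted p = 0.01; 0.182 without ChryM 3 and 0.0581 without Model 3). The kainate receptor subunit genes Grik2, Grik4 and Grik5 were not called in either comparison, with log2 fold changes of 0.14, 0.40 and 0.22 in Model against Ctrl. The list's median, C1ql2 itself included, was -0.55 and 0.39 in the 2 comparisons. Over all tested genes 5.39% were called lower in Model against Ctrl and 3.86% higher in ChryM against Model.

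For Wfs1, 9 of 13 genes of the endoplasmic reticulum stress response could be tested, and none was called in Model against Ctrl or in ChryM against Model. Hspa5, the main chaperone of that compartment, averaged 134 ± 22.1 CPM in ChryM, 167 ± 32.7 CPM in Model and 170 ± 7.67 CPM in Ctrl. It was the 1 gene of the list called in ChryM against Ctrl, lower by a log2 fold change of -0.34 (adjusted p = 0.0312; lost without ChryM 2 or 3 or Ctrl 1 or 2, up to 0.246). Ddit3, a factor induced late in the response, averaged 50.8 ± 5.89 CPM in Model and 50.3 ± 9.23 CPM in Ctrl. The list's median log2 fold change was 0.06 in Model against Ctrl and -0.10 in ChryM against Model. None of the 4 tested POU factor genes was called in any comparison. Of the kynurenine pathway none of 10 genes reached the count filter, and Tdo2, Ido1 and Kynu were at 0. Among desmosome genes 2 of 9 were tested, and Pkp4, a plakophilin of cell junctions, was higher in ChryM, at 363 ± 26.7 CPM, than in Model, at 227 ± 13.7 CPM (0.68, adjusted p = 9.09e-09), and than in Ctrl, at 218 ± 20.8 CPM (0.73, adjusted p = 6.23e-11). In Model against Ctrl its log2 fold change was 0.06 (adjusted p = 0.815).

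The genes whose levels over the 9 libraries lay closest to Wfs1, by the root mean square distance of centred log2 CPM among 6624 candidates, were Tarbp2 at 0.341, Csad at 0.357 and Bend5 at 0.368. The spread of Wfs1 itself was 0.764 on that scale. They averaged 10.5 to 13.7 CPM. For C1ql2, with a spread of 0.443, the closest were Acbd4 at 0.171, Tiam1 at 0.186 and Pdpr at 0.19. These are descriptions of likeness over 9 libraries that share 3 groups.

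Markers of some other cells also differed between the groups, and not all in the same direction. GABA neuron genes summed to 241 to 285 CPM in ChryM, 301 to 373 in Model and 276 to 313 in Ctrl. Microglia genes summed to 87.3 to 117, 135 to 157 and 136 to 157 CPM in the same groups. Astrocyte genes summed to 1390 to 1420, 1440 to 1510 and 1520 to 1780 CPM. Thalamus genes summed to 20.8 to 31.8, 40.1 to 57.5 and 26 to 44 CPM. Summed myelin genes stood at 15100 to 16500 CPM of the library total in ChryM, 8520 to 9440 in Model and 15600 to 16700 in Ctrl. All 11 of them fell in Model against Ctrl and 7 rose in ChryM against Model, among them Mobp and Mal. Leaving out 1 library ended the Model against Ctrl calls of Mog (Model 1 or 3, Ctrl 2 or 3, adjusted p up to 0.116) and Ermn (Model 3 or Ctrl 2, up to 0.0685), and the ChryM against Model call of Cldn11 (ChryM 2 or 3, Model 2 or 3, Ctrl 1, up to 0.354). Choroid plexus genes summed to 77.4 to 88.2 CPM in ChryM, 34.8 to 44 in Model and 1750 to 1810 in Ctrl, and meningeal genes to 142 to 196, 101 to 120 and 328 to 341 CPM in the same groups. Excitatory neuron genes summed to 1630 to 1760 CPM in ChryM, 1540 to 1580 in Model and 1740 to 1970 in Ctrl. Of 6 tested excitatory genes, Camk2a and Camk2b, subunits of a calcium-dependent kinase of synapses, fell by 0.44 and fell by 0.24 on the log2 scale in Model against Ctrl (adjusted p = 0.00568 and 0.0276; lost without Model 2 for Camk2a, 0.0896, and without Model 3, Ctrl 1 or Ctrl 2 for Camk2b, up to 0.232), and Slc17a7 and Neurod6 were not called there (-0.03 and 0.17). In ChryM against Model, Camk2b was higher by 0.39 (adjusted p = 0.000126) and Camk2a was not called (0.02). Against Ctrl, Camk2a and Slc17a7 were lower in ChryM, by 0.43 and 0.24 (adjusted p = 0.00352 and 0.0198). The Slc17a7 call was lost without ChryM 2, ChryM 3 or Ctrl 1 (adjusted p up to 0.162). Markers of neocortex, which a dissection could include, summed to 39.1 to 52 CPM in ChryM, 30.3 to 55.5 in Model and 44.8 to 57.8 in Ctrl. Of 2 tested, Fezf2, a transcription factor of deep-layer cortical neurons, fell in Model against Ctrl by 1.30 on the log2 scale (adjusted p = 0.0196; lost without Model 3, Ctrl 1 or Ctrl 2, up to 0.124). It averaged 12.5 ± 2.29 CPM in ChryM, 7.86 ± 0.866 CPM in Model and 19.3 ± 3.8 CPM in Ctrl, and was not called in ChryM against Model (adjusted p = 0.432). The part of these other cells in the levels of Wfs1 and C1ql2 was not tested.

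**Figure D4:**
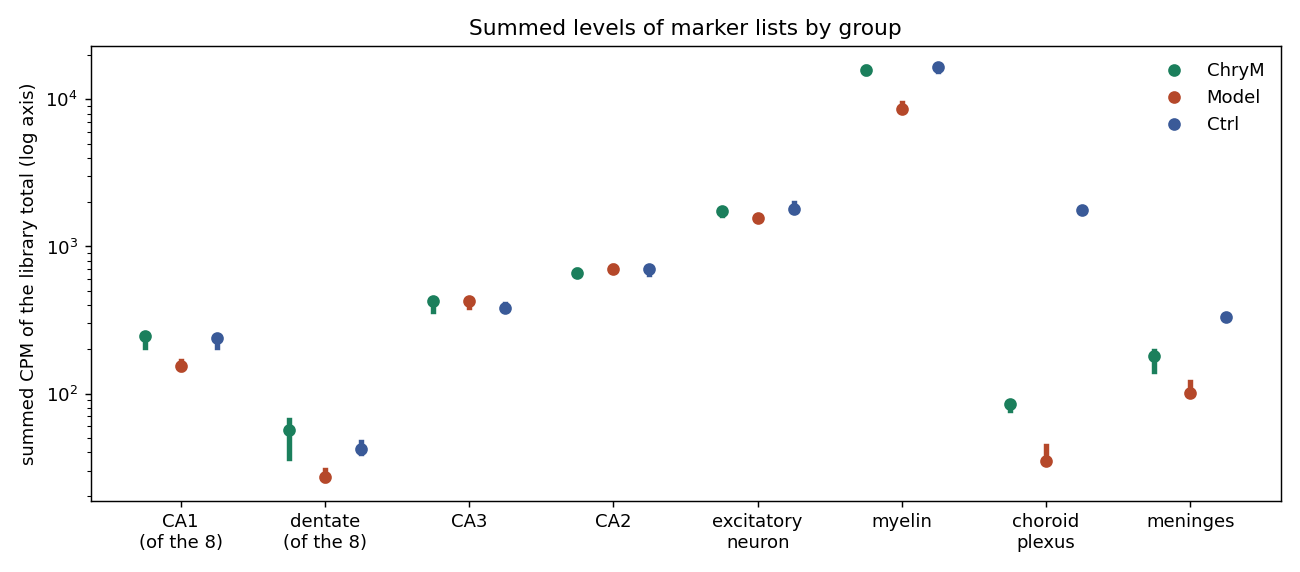
Summed CPM of the library total of marker lists by group on a log axis, with ChryM, Model and Ctrl from left to right in each list; points are the middle library and bars run from the lowest to the highest of 3. The CA1 genes sum to 147 to 166 CPM in Model, below the 206 to 255 CPM of ChryM and the 207 to 243 CPM of Ctrl. Among them only Wfs1 was called, with a mean of 25.7 TMM-scaled CPM in Model, 86.7 in ChryM and 74.9 in Ctrl. The sum therefore does not show a fall of the CA1 genes as a set. Summed myelin genes are also lowest in Model.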

How the data were processed

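Libraries of poly(A) RNA kept the strand by dUTP marking, per the labels' protocols. The submitters' processing notes name HISAT2 and DESeq2 and no versions. How reads were assigned to genes, on which build and annotation and with which strand setting, is not given in the sources used here. Gene counts, as deposited, were whole numbers per gene ID. The deposited FPKM equalled count over gene length and library total, per the file headers and a check of the values, and served to compare levels between genes. All 9 libraries were fitted together in edgeR 4.0.16 (R 4.3.3) after filterByExpr and TMM scaling, leaving 7073 genes and 6 residual degrees of freedom; each of 3 comparisons was tested two-sided with glmQLFTest, with Benjamini-Hochberg adjustment over all 7073 and a threshold of 0.05. The pipeline was tested on simulated counts with known changes and 1 spread of 5.5% beyond counting error for every gene. It called 39.6%, 32.7% and 41.3% of 1.5-fold changes in Model against Ctrl, ChryM against Model and ChryM against Ctrl. For 2-fold changes it called 72.9%, 60.4% and 77.6%. A gene not called may therefore still differ by such amounts. Single genes are given in TMM-scaled CPM, and list sums in CPM of the library total. The 8 genes and 27 lists were chosen with earlier results of these data known. All 8 genes were named, with called genes of the lists (at most 4 a list by the smallest p), the first 2 of a list and the 3 genes closest in pattern to each called member; some items are withheld and not reported here; Grik2, Grik4, Grik5, Ddit3, Neurod6, Stxbp6, Mog, Ermn, Lct, Ido1, Kynu, Mt-nd6 and Mt-co1 were named beside them after their values were seen. Alternatives were other scaling, filters, spread estimates, the replicate number as a block, limma 3.58.1 on log2 FPKM, limma-voom, DESeq2 1.42.0 and leaving out each library.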

Additional observations from a re-analysis of the deposited data

How the results depend on the processing

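Wfs1 kept its call in both comparisons under all 21 alternatives with an adjusted p for Model against Ctrl (log2 fold change -1.69 to -1.35) and all 22 for ChryM against Model (1.63 to 1.88). C1ql2 lost its call in Model against Ctrl under 11 of 21 alternatives (adjusted p 0.0155 to 0.259 over all), so that 1 of 5 genes was called with DESeq2 on the filtered genes, limma-voom, no count filter and the replicate block, and 1 to 2 when single libraries were left out; in ChryM against Model that range was also 1 to 2. The DESeq2 run without a count filter gave no adjusted p to the members in Model against Ctrl, nor to Mpped1, Pou3f1 and C1ql2 in ChryM against Model; the run on the filtered genes and edgeR's likelihood ratio test were added after seeing the data. Where the main test left 1 of these 5 genes uncalled, no alternative called it. Some listed genes uncalled in the main test were called under an alternative. Among them were Calb1 in Model against Ctrl with library totals (adjusted p = 0.0238) and Stxbp6 in ChryM against Ctrl without Ctrl 3 (0.0323). Slc17a7 in ChryM against Model was another (adjusted p down to 0.0337). Signs turned only for genes that were not called. In ChryM against Model, Fibcd1 was -0.00097 and -0.0025 in the 2 DESeq2 runs, -0.0018 with only the groups compared and -0.13 to 0.10 when single libraries were left out, and Mpped1 was 0.021 with library totals, 0.036 on log2(FPKM + 1), 0.040 on log2(FPKM + 0.1) and -0.24 to 0.22 without a library. In Model against Ctrl, leaving out a library put Fibcd1 at -0.11 to 0.096 and Pou3f1 at -0.29 to 0.037, and in ChryM against Ctrl it put Fibcd1 at -0.13 to 0.070. All genes called in Model against Ctrl, ChryM against Model and ChryM against Ctrl numbered 440, 262 and 591 with DESeq2 without a filter, 385, 230 and 592 with DESeq2 on the filtered genes, 557, 360 and 799 on log2(FPKM + 1) and 509, 349 and 762 on log2(FPKM + 0.1). With library totals the median of all genes in Model against Ctrl shifted to -0.14 (-0.12 and -0.14 on log2 FPKM), and the calls split into 276 higher and 655 lower, against 498 and 381; the split was 373 and 252, against 273 and 312, in ChryM against Model, and 520 and 819, against 695 and 634, in ChryM against Ctrl. Among the calls of listed genes given above, DESeq2 on the filtered genes ended those of Sema5a and Dock10 in both comparisons, of Homer3, Camk2a, Camk2b, Fezf2, Mog and Ermn in Model against Ctrl, of Elavl2, Rgs14, Pcp4, C1ql3 and Cldn11 in ChryM against Model, and of Hspa5, Camk2a and Slc17a7 in ChryM against Ctrl (adjusted p up to 0.354 over all alternatives). The replicate numbers did not pair the libraries: same-numbered libraries correlated at -0.0304 to 0.0421 in their deviations, and the replicate block gave 855, 586 and 1317 calls. Of the dentate genes 3 of 4 had too few counts for a test. The causes of these shifts were not tested.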
